A study of Mus musculus with 15 samples.

Results

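The mRNAs described here encode 10 selenoproteins, the products of Gpx1, Gpx4, Txnrd1, Txnrd2, Selenof, Selenok, Selenot, Selenos, Selenow and Sephs2. They were chosen by gene name, out of the 21727 transcripts in the deposited counts, because the coding sequence (CDS) of each is read through an in-frame UGA codon. Ribosome-protected fragments (RPFs, the stretches of mRNA that ribosomes shield from RNase) were sequenced from E14Tg2a.4 cells, a mouse embryonic stem cell line grown with serum and leukemia inhibitory factor. The study asked whether ribosomes that carry Rps27 and ribosomes that carry its paralog Rps27l, both proteins of the small subunit, are found on different mRNAs. In the Rps27-FLAG line both alleles of Rps27 carry a C-terminal linker and 3xFLAG tag at the endogenous locus, and in the Rps27l-FLAG line both alleles of Rps27l do, while WT cells carry no tag. Each line is represented by 3 clones, and every lysate contained cycloheximide. Total RPFs were taken from all ribosomes of each of the 9 clones, and FLAG-IP RPFs from the ribosomes that anti-FLAG beads retained from the 6 tagged clones, which gives 15 libraries in 5 conditions of 3. No FLAG-IP library of untagged WT cells was analysed here, so the background of the beads was not measured. The IP and total libraries with one replicate number come from one clone, and the study's sample table lists the replicate number as the sequencing batch. Libraries of one replicate were also pooled during their preparation.

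The 15 libraries held 3972152 to 8064166 counts, of which the 10 selenoprotein mRNAs took 4614 to 8966, or 0.107% to 0.118%. Counting error therefore differs widely between the members, from 7 counts for Selenow in its lowest library to 3578 for Txnrd1 in its highest. Markers of embryonic stem cells (8 genes, among them Pou5f1, Nanog and Sox2) summed to 3542 to 4388 CPM (counts scaled to a common library size) in every library. The sums for 5 fibroblast markers (11.3 to 40.0 CPM), 5 primitive endoderm markers (4.60 to 27.1 CPM) and 4 primed or mesoderm markers (5.98 to 29.9 CPM) were low.

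Selenocysteine, the selenium analog of cysteine, is inserted at a UGA codon that would otherwise end translation. The recoding needs a stem-loop in the 3' UTR (the SECIS element), the protein Secisbp2 that binds it, the elongation factor Eefsec and a dedicated tRNA. Ribosomes pass such a codon slowly and some terminate there, so the position of the UGA matters for any count of ribosomes over the CDS. Most selenoproteins of known function are oxidoreductases with selenocysteine in the active site: glutathione peroxidases (Gpx1 in the cytosol, Gpx4 on lipid hydroperoxides of membranes), thioredoxin reductases (Txnrd1 in the cytosol, Txnrd2 in mitochondria), and small proteins of thioredoxin-like fold. Gpx4 is known for protection from ferroptosis and is essential in the early mouse embryo.

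The sequences around the UGA are shown because they mark where each ribosome has to recode, and because the counts leave out the first 15 and the last 5 codons of the CDS. All are on GRCm38 with GENCODE M21 transcripts, 5' to 3' on the coding strand, with the recoded codon in capitals as TGA. Each line runs from 12 bases before the TGA to 12 bases after it or to the stop codon.
Gpx1, codon 47 of 201, chr9:108339451-108339453 (plus strand), exon 1: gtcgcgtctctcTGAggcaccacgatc
Gpx4, codon 73 of 197, chr10:80054737-80054739 (plus strand), exon 3: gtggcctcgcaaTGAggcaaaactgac
Selenow, codon 13 of 88, chr7:15920464-15920466 (minus strand): tattgtggagctTGAggctataagccc
Selenok, codon 92 of 94, chr14:29973440-29973442 (plus strand): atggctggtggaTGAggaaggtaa
Txnrd1, codon 498 of 499, chr10:82896037-82896039 (plus strand): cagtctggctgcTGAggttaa
Txnrd2, codon 526 of 527, chr16:18477772-18477774 (plus strand): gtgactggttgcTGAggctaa
Selenos, codon 189 of 190, chr7:66088844-66088846 (plus strand): tcatctggcggcTGAaactaa

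These sequences fall into 3 arrangements. In Txnrd1, Txnrd2, Selenok and Selenos the UGA lies within the last 5 codons, next to the true stop, so their counts come only from ribosomes that have not yet reached it. In Gpx1, Gpx4, Selenof (codon 93 of 162, chr3:144590645-144590647, plus strand), Selenot (codon 49 of 195, chr3:58585238-58585240, plus strand) and Sephs2 (codon 63 of 452, chr7:127273731-127273733, minus strand) it lies inside the counted part. Of the counted codons, 82.4% are downstream of the UGA in Gpx1, 67.4% in Gpx4, 45.5% in Selenof, 80.7% in Selenot and 88.9% in Sephs2. Selenow is the third arrangement: its UGA is codon 13, and all of its 69 counted codons are downstream. The base after the UGA is G in 8 of the 10 and A in Selenof and Selenos. Because the files give 1 count per transcript and library, the density before and after a UGA could not be compared within a gene, except that counts for Selenow come only from codons past its UGA.

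**Figure D1:**
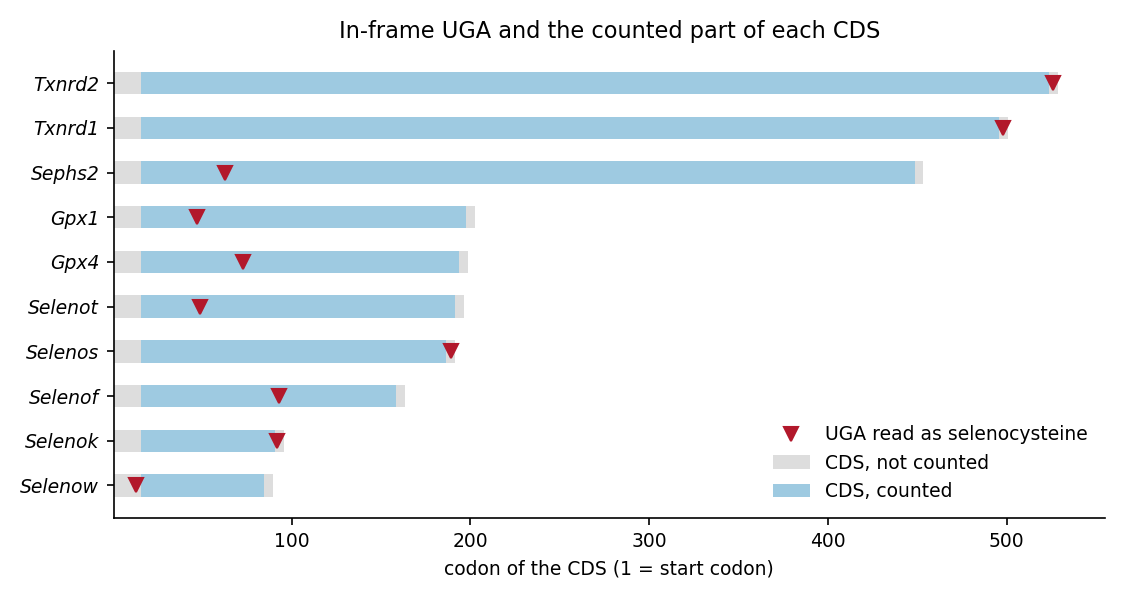
Codons of the 10 selenoprotein CDSs from the start codon (x axis, codon number), with the counted part in blue, the parts left out of the counts in grey and the recoded UGA as a red triangle. The UGA sits inside the counted part in 5 mRNAs, at the very end in Txnrd1, Txnrd2, Selenok and Selenos, and before the counted part in Selenow.

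Of the 10 mRNAs, 9 passed the filter on low counts (CPM above 2 in 14 or more of the 15 libraries) and could be tested. Selenow, a small thioredoxin-like selenoprotein, was the exception. It had 24, 28 and 16 counts in the WT total libraries, 35, 12 and 12 in the Rps27-FLAG and 27, 21 and 22 in the Rps27l-FLAG total libraries. In the FLAG-IP libraries it had 20, 14 and 7 counts in Rps27-FLAG and 32, 8 and 7 in Rps27l-FLAG. Every library therefore held Selenow footprints downstream of the UGA, at a depth too low for a comparison between conditions.

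Levels were compared between genes as normalised CPM per kb of counted CDS. The counted codons lie before the UGA in some members, on both sides in others and after it in Selenow. Any termination at the UGA would therefore enter these levels unequally, which was not measured. In WT total RPFs they spanned 75.2-fold between the highest and the lowest member. Gpx4 was highest at 590 ± 26.4 (SD, n = 3 clones here and in the following), followed by Txnrd1 at 291 ± 9.08, Selenof, a thioredoxin-like protein of the endoplasmic reticulum (ER), at 265 ± 6.08, and Gpx1 at 152 ± 21.9. Selenot, an ER thioredoxin-like protein (114 ± 15.7), and Selenok, a membrane protein of the ER (113 ± 2.90), came next. Selenos, an ER membrane protein of the degradation machinery for misfolded proteins, was at 79.8 ± 11.5, and Sephs2, the enzyme that makes selenophosphate for selenocysteine synthesis and is itself a selenoprotein, at 41.7 ± 2.97. Selenow at 15.2 ± 3.32 and Txnrd2 at 7.85 ± 0.921 were lowest. The WT libraries of neighbours in this order did not overlap, except between Gpx1 and Selenot (127 to 166 against 97.8 to 129) and between Selenot and Selenok (97.8 to 129 against 110 to 116). Between the thioredoxin reductases, the cytosolic Txnrd1 was far more densely covered than the mitochondrial Txnrd2.

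The order of the means was the same in the total RPFs of both tagged lines and in Rps27l-FLAG IP RPFs, and in Rps27-FLAG IP RPFs Selenof stood above Txnrd1. Dividing by the whole CDS length in place of the counted part also kept the WT order. Together Gpx4 and Txnrd1 held 62.7% to 67.9% of the counts of the 10 mRNAs. These are densities of ribosomes and not mRNA levels: with no RNA-seq of the same clones analysed here, more mRNA and more ribosomes per mRNA cannot be told apart. In bulk lysates fewer expressing cells and less RNA per cell cannot be told apart either.

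**Figure D2:**
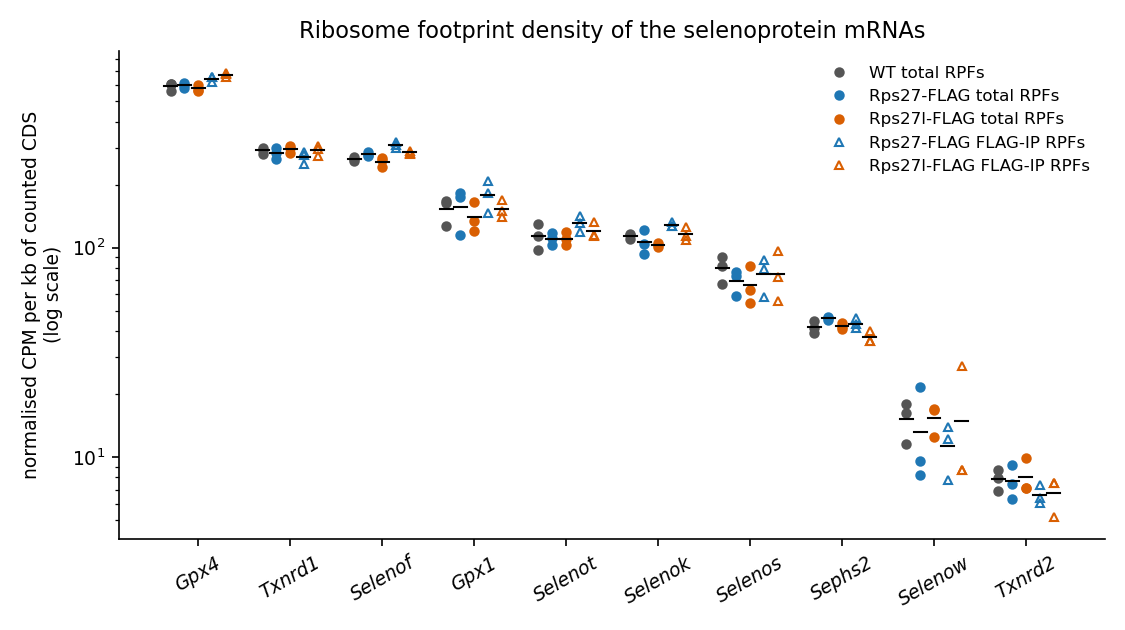
Normalised CPM per kb of counted CDS (y axis, log scale) of the 10 selenoprotein mRNAs, 1 symbol per library (filled circles total RPFs, open triangles FLAG-IP RPFs) and a bar at the mean of 3 clones. Gpx4 stands highest and Txnrd2 lowest in all 5 conditions, and for most genes the conditions lie close together beside the 75.2-fold span between genes.

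FLAG-IP and total RPFs of the same line were set against each other to ask whether an mRNA was over- or under-represented on tagged ribosomes. In the Rps27-FLAG line, 0 of the 9 tested selenoprotein mRNAs passed an adjusted p of 0.05 in edgeR's quasi-likelihood test without pairing by clone, where 5.67% of the 10085 tested transcripts did (0.327% higher and 5.34% lower in the IP). At an unadjusted p under 0.05 there were 2 of the 9 members, beside 2230 of the 10085 transcripts. DESeq2 and voom with limma called 0 members, where they called 5.89% and 5.09% of all transcripts. The fitted log2 fold changes ran from -0.22 for Txnrd2 to 0.27 for Selenok, with a median of 0.10 beside -0.01 over all tested transcripts. Because IP and total libraries share a clone, the fit was repeated with the clone as a replicate block, which called 5 of the 9, all higher in the IP, where 41.2% of all transcripts were called and 18.3% were higher. The selenoprotein mRNAs called were Selenot, Gpx1, Selenof, Gpx4 and Selenok.

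Gpx4 was at 307, 321 and 327 normalised CPM in the 3 total libraries of Rps27-FLAG and at 329, 349 and 350 in the IP libraries of the same clones. All 3 IP libraries were above all 3 total libraries, by a small step that was nearly equal in each clone (log2 ratios of 0.10, 0.12 and 0.10). The log2 fold change was 0.10 (SE 0.057, adjusted p = 0.331), and with the clone as a block 0.11 (SE 0.031, adjusted p = 0.0029). Selenof read 122, 119 and 118 in total RPFs and 137, 132 and 129 in IP RPFs. Again the fractions did not overlap, and the fit gave 0.14 (SE 0.057, adjusted p = 0.188) without and 0.15 (SE 0.042, adjusted p = 0.0019) with the block.

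Selenot was at 58.8, 54.3 and 61.9 normalised CPM in total RPFs of Rps27-FLAG and at 63.0, 74.7 and 69.3 in IP RPFs. The fractions did not overlap, but the step was uneven, with a log2 ratio of 0.46 in clone 2 against 0.10 and 0.16 in clones 1 and 3. The log2 fold change of 0.24 (SE 0.091, adjusted p = 0.174; with the block 0.24, SE 0.058, adjusted p = 2.8e-04) was no longer called with the block when clone 2 was left out. Selenot was called without the block when clone 1 was left out (0.32, adjusted p = 0.027), where 1817 of the 10085 transcripts were called. Selenok, the mRNA with the shortest CDS among those tested, read 23.5, 27.4 and 20.9 in total RPFs and 28.4, 28.6 and 29.7 in IP RPFs. Its 3 clones differed, at log2 ratios of 0.28, 0.06 and 0.51, and the fit gave 0.27 (SE 0.124, adjusted p = 0.253), or 0.26 (SE 0.093, adjusted p = 0.015) with the block.

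Gpx1 was at 62.7, 99.2 and 95.1 normalised CPM in total RPFs of Rps27-FLAG and at 79.6, 99.1 and 113 in IP RPFs. Its IP and total values overlapped, and clone 2 showed no step (log2 ratio -5.3e-04) while clones 1 and 3 did (0.34 and 0.25). It was not called without the block (0.18, SE 0.188, adjusted p = 0.628) and was called with it (0.19, SE 0.049, adjusted p = 7.9e-04). The SD of its log2 ratios over the 3 clones was 0.18, so this call does not mean that the clones agreed. With the block, leaving out clone 1 ended the calls of Gpx1 and Selenok, leaving out clone 3 that of Selenok, and leaving out clone 2 added Txnrd2 at -0.45 (adjusted p = 0.041). These fits without clone 1, 2 or 3 called 3381, 3311 and 3384 of the 10085 transcripts. The members not called with all 3 clones were Selenos (0.10), Txnrd1 (-0.06), Sephs2 (-0.08) and Txnrd2 (-0.22, from 68 to 110 counts in the total libraries and 40 to 67 in the IP libraries).

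In the Rps27l-FLAG line the outcome without pairing was the same: 0 of the 9 passed, where 3.1% of the 10085 transcripts did (0.833% higher, 2.27% lower). At an unadjusted p under 0.05 there was 1 of the 9, beside 1752 of all transcripts. The log2 fold changes ran from -0.24 (Txnrd2) to 0.22 (Gpx4), with a median of 0.14 beside -0.03 over all. DESeq2 called 1, Gpx4, and voom with limma 0, where they called 4.63% and 3.03% of all transcripts. With the clone as a block 4 of the 9 were called, where 31.0% of all transcripts were: Gpx4, Selenof and Gpx1 were higher in the IP (12% of all were higher) and Sephs2 lower (19% of all were lower).

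Gpx4 had the clearest step. Its total libraries in Rps27l-FLAG read 300, 303 and 321 normalised CPM and its IP libraries 347, 361 and 365, so that every IP library was above every total library. The log2 ratios of the 3 clones were 0.21, 0.25 and 0.19, and the fit gave 0.22 (SE 0.052, adjusted p = 0.0696), or 0.22 (SE 0.030, adjusted p = 2.5e-08) with the block. With the block Gpx4 stayed called with any 1 clone left out (adjusted p 2.6e-07 to 5.5e-07), where 2394 to 2511 of the 10085 transcripts were called. DESeq2 gave 0.25 (adjusted p = 0.025).

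Selenof was at 104, 112 and 115 normalised CPM in total RPFs of Rps27l-FLAG and at 124, 121 and 122 in IP RPFs, without overlap, at 0.15 (SE 0.071, adjusted p = 0.334), or 0.16 (SE 0.046, adjusted p = 0.0054) with the block. Gpx1 read 73.0, 65.2 and 90.3 in total and 82.1, 76.7 and 92.3 in IP RPFs, which overlapped, at 0.14 (adjusted p = 0.673; with the block 0.14, adjusted p = 0.037). Sephs2 was the only member lower in the IP with a call: 56.5, 53.3 and 54.5 in total against 52.2, 46.3 and 46.8 in IP RPFs, without overlap, at -0.17 (SE 0.086, adjusted p = 0.355), or -0.17 (SE 0.067, adjusted p = 0.042) with the block. The blocked calls of Gpx1 and Selenof were both lost without clone 1, that of Gpx1 also without clone 2, and that of Sephs2 with any 1 clone left out. Txnrd1, the mRNA with the most counts, was at 430, 441 and 406 in total and 424, 441 and 396 in IP RPFs, a log2 fold change of -0.02 (SE 0.059, adjusted p = 0.921).

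Over clones, all 3 IP/total ratios of Rps27-FLAG were above 0 for 4 of the 9 members, Gpx4, Selenof, Selenot and Selenok, as for 28.9% of all tested transcripts, and below 0 for Txnrd1 and Sephs2, as for 32.9%. In Rps27l-FLAG they were above 0 for those 4 and for Gpx1 and Selenos, beside 23.7% of all transcripts, and below 0 for Txnrd1 and Sephs2, beside 31.7%. IP and total libraries failed to overlap, with the IP higher, for Gpx4, Selenof and Selenok in both lines and for Selenot in Rps27-FLAG, where 11.4% (Rps27-FLAG) and 9.21% (Rps27l-FLAG) of all transcripts did so. With the IP lower, Sephs2 in Rps27l-FLAG was the only member, where 14% of all transcripts did so, and in Rps27-FLAG there was none, where 16.9% did.

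**Figure D3:**
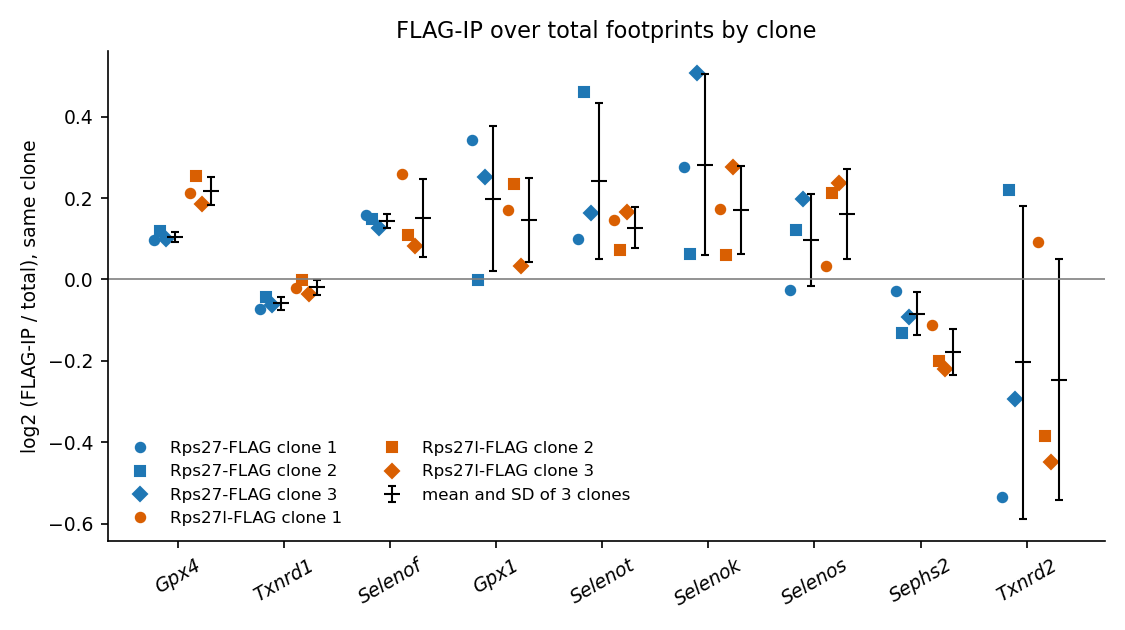
Log2 ratio of FLAG-IP to total normalised CPM within each clone (y axis) for the 9 tested selenoprotein mRNAs, with Rps27-FLAG in blue and Rps27l-FLAG in orange, 1 symbol per clone, and the mean with the SD of 3 clones in black. Gpx4 lies near 0.10 in all clones of Rps27-FLAG and between 0.19 and 0.25 in those of Rps27l-FLAG, Txnrd1 lies just under 0, and Txnrd2 spreads from -0.53 to 0.22.

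The lines were then compared directly, as the difference between the IP/total ratios of Rps27l-FLAG and Rps27-FLAG in a fit with the clone as a term, which asks whether an mRNA distinguishes the 2 kinds of ribosome. None of the 9 members passed (0 of 9 by edgeR, voom with limma and DESeq2), where 0.565% of the 10085 transcripts did at an adjusted p under 0.05 and an absolute log2 difference over 0.25. At an unadjusted p under 0.05 there was 1 member, Gpx4, beside 1217 of the 10085 transcripts. The ratio of Gpx4 was higher in Rps27l-FLAG by 0.11 (SE 0.043, adjusted p = 0.194 by edgeR). Its clones read 0.19 to 0.25 in Rps27l-FLAG and 0.10 to 0.12 in Rps27-FLAG. How many of all transcripts separate the clones of the lines in this way was not counted, so the separation adds nothing to the test. With the CDS length trend removed, Gpx4 passed the adjusted p (0.15, adjusted p = 0.0435) and missed the limit of 0.25. The other members differed by -0.11 (Selenot, SE 0.087) to 0.07 (Selenos, SE 0.113), with SEs from 0.041 for Txnrd1 to 0.211 for Txnrd2. That a ratio was called in one line and not in the other, as for Selenot, Selenok and Sephs2 with the block, therefore does not show that the lines differ.

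The members' IP/total ratios were then set against the length of their CDS. Over all transcripts with a CDS length, short mRNAs had higher IP/total ratios: the median log2 fold change was 0.21 in Rps27-FLAG and 0.18 in Rps27l-FLAG in the shortest of 20 equal bins of length (median 330 nt), and -0.40 and -0.32 in the longest (median 6429 nt). Of the 9 tested members, 7 had a CDS shorter than the median of 1440 nt, from 282 nt in Selenok to 603 nt in Gpx1 and 1356 nt in Sephs2, and Txnrd1 (1497 nt) and Txnrd2 (1581 nt) were longer. When the trend with CDS length was removed, the blocked fit called 0 of 9 in Rps27-FLAG, where 30.4% of transcripts were called, and 1 of 9 in Rps27l-FLAG, Sephs2 at -0.18 (adjusted p = 0.036), where 22.3% were called. Gpx4 then stood at -0.07 in Rps27-FLAG and at 0.08 in Rps27l-FLAG (adjusted p = 0.0534), Selenof at -0.06 and -0.0093, and Selenok at -0.01 and -0.07. The median over the 9 turned from 0.11 to -0.06 in Rps27-FLAG and from 0.14 to -0.02 in Rps27l-FLAG, beside -0.03 and -0.04 over all transcripts. What length stands for in these ratios was not tested.

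**Figure D4:**
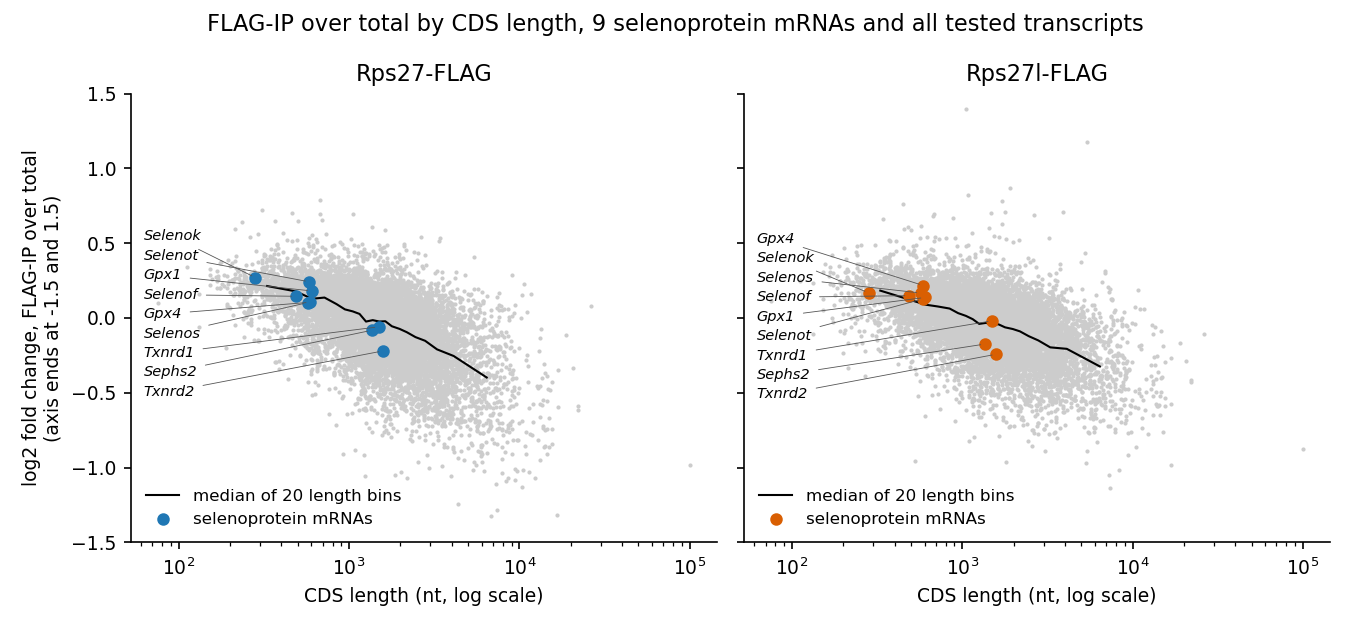
Log2 fold change of FLAG-IP over total RPFs (y axis, from -1.5 to 1.5, which leaves out 2 transcripts in Rps27-FLAG and 1 in Rps27l-FLAG) against CDS length in nt (x axis, log scale), with all tested transcripts in grey, the medians of 20 length bins as a line and the 9 selenoprotein mRNAs in colour. In both lines the short members lie above 0 and Txnrd1, Txnrd2 and Sephs2 below it, and Txnrd2 lies farthest below the line of medians (-0.21 and -0.24 with the length trend removed).

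Total RPFs were compared between lines to ask whether the tags themselves go with a change in ribosome density. Of the 9 members 0 passed in any of the 3 comparisons, with 0 at an unadjusted p under 0.05 and 0 called by DESeq2 or by voom with limma, and 0.0% of all transcripts passed in each (294, 574 and 580 transcripts were at an unadjusted p under 0.05 for Rps27-FLAG against WT, Rps27l-FLAG against WT and Rps27l-FLAG against Rps27-FLAG). With the sequencing batch as a block 0 members passed, where 0.00992%, 1.43% and 1.36% of all transcripts did. Rps27-FLAG differed from WT by log2 fold changes of -0.20 (Selenos) to 0.14 (Sephs2), and Rps27l-FLAG from WT by -0.28 (Selenos) to 0.04 (Txnrd2). The 2 comparisons share the WT libraries. Selenos had the largest differences from WT in size, and its libraries overlapped: 34.6, 42.1 and 46.2 normalised CPM in WT, 30.3, 37.5 and 39.2 in Rps27-FLAG (SE of the log2 fold change 0.168) and 27.9, 32.1 and 41.9 in Rps27l-FLAG (SE 0.168). For Gpx4 and Txnrd1 the SEs were 0.057 and 0.061 in Rps27-FLAG against WT, and the log2 fold changes were 0.01 and -0.05 in Rps27-FLAG and -0.03 and 0.02 in Rps27l-FLAG.

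Variation among the 9 total libraries was larger for some members than for others. The SD of the log2 level over the 9 total libraries was 0.05 for Gpx4, 0.07 for Txnrd1 and 0.07 for Selenof, below the median of 0.16 over all tested transcripts, and 0.25 for Gpx1, 0.24 for Selenos and 0.21 for Txnrd2 above it. The batch means of Txnrd2 were level, at 11.8, 12.3 and 11.9 normalised CPM. A test of the batch in total RPFs, with the cell line as a term, called 1 of the 9 members, Selenos, where 12.3% of all transcripts were called. Selenos averaged 30.9 normalised CPM in the 3 libraries of batch 1, 37.2 in batch 2 and 42.4 in batch 3. Its batches were separated by 0.46 on the log2 scale between the lowest and the highest (adjusted p = 0.0199). The same order held in the IP libraries, at 29.1, 38.9 and 47.1 (0.69, adjusted p = 0.022, where 3.72% of transcripts were called). The IP libraries come from the same clones as the total libraries of the tagged lines, so they do not repeat this order independently. In all 5 conditions the Selenos library of batch 1 was the lowest and that of batch 3 the highest, where 12.9% of all transcripts had one batch lowest and 13.5% one batch highest in all 5 conditions. Sephs2, which did not pass the batch test (0.09, adjusted p = 0.714), was lowest in batch 2 in all 5 conditions. The call was lost with DESeq2 (adjusted p = 0.0624), without the cell line in the model (0.100), and when Rps27-FLAG replicate 1 (0.100), Rps27l-FLAG replicate 3 (0.0830), WT replicate 1 (0.117) or WT replicate 3 (0.0571) was left out.

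Gpx1 moved with Selenos, with a Pearson r of 0.77 over the 9 total libraries, the highest of the 36 pairs of tested members (median 0.14, lowest -0.57), all of which share their libraries and batches. Gpx1 averaged 68.4, 85.1 and 91.6 normalised CPM in batches 1, 2 and 3 of total RPFs, a range of 0.42 on the log2 scale that did not pass (adjusted p = 0.0647). Without Rps27l-FLAG replicate 2, which read 65.2 where the other 2 libraries of that batch read 90.9 and 99.2, it passed (0.49, adjusted p = 3.7e-04). It also passed without Rps27l-FLAG replicate 1 (0.57, adjusted p = 0.014). These fits called 2169 and 1504 of the 10085 transcripts. Each batch also holds different clones, so batch and clone cannot be told apart.

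**Figure D5:**
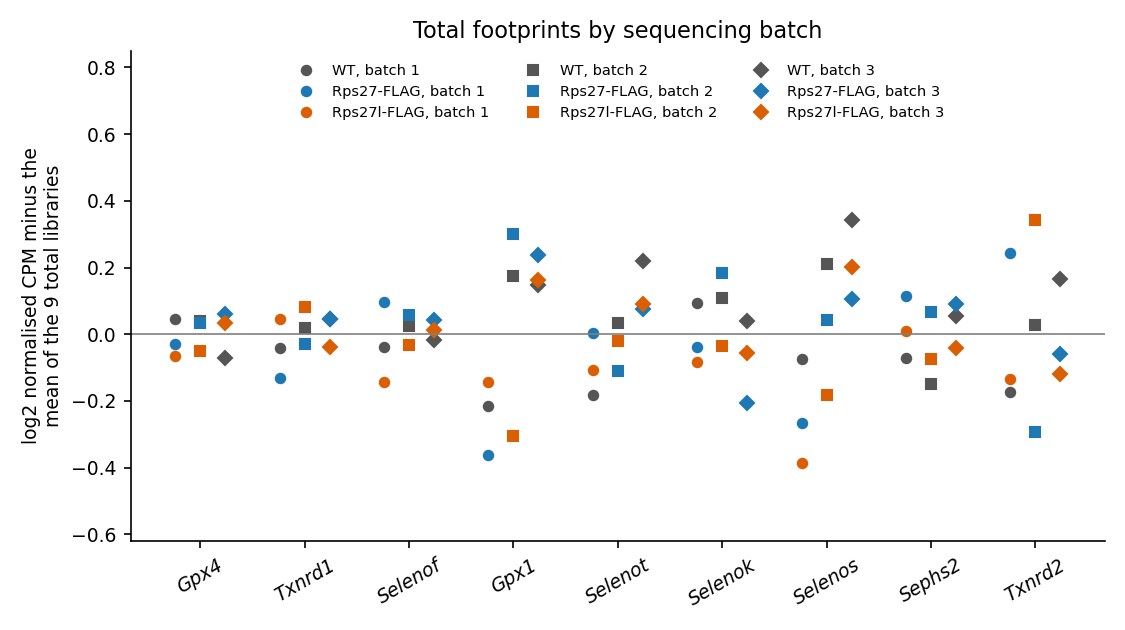
Log2 normalised CPM of each of the 9 total RPF libraries minus the mean of all 9 (y axis) for the tested selenoprotein mRNAs, with lines by colour and sequencing batches by symbol and by position from left to right. Selenos is lowest in batch 1 and highest in batch 3 in each line, Gpx1 is low in batch 1 and in 1 library of batch 2, and Gpx4, Txnrd1 and Selenof stay within 0.144 of their means.

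The remaining selenoprotein genes of the mouse gave less. Of 14, 10 were tested, and Dio1, Dio2, Gpx2 and Selenov were not, with at most 2 counts in any library. None of the 10 was called in the IP/total comparison of either line without pairing (5.67% and 3.1% of all transcripts were) or in the comparison between lines (0.565% were). With the clone as a block 1 of 10 was called in each line, where 41.2% and 31.0% of all transcripts were. These were Selenoh, a nucleolar selenoprotein, in Rps27-FLAG (0.34, SE 0.086, adjusted p = 3.1e-04, log2 ratios of 0.30, 0.34 and 0.40 in the 3 clones) and Msrb1, which reduces oxidised methionine, in Rps27l-FLAG (0.38, SE 0.128, adjusted p = 0.017, log2 ratios of 0.28, 0.21 and 0.73). With the length trend removed as well, 0 of 10 were called in either line, where 30.4% and 22.3% of all transcripts were. Selenoh was then at 0.09 (adjusted p = 0.452) in Rps27-FLAG and Msrb1 at 0.18 (adjusted p = 0.366) in Rps27l-FLAG. Selenoh read -0.26, 0.00072 and 0.23 in the clones of Rps27l-FLAG. The median log2 fold change of the 10 was 0.06 in Rps27-FLAG and -0.0017 in Rps27l-FLAG.

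Of the 11 factors for selenocysteine synthesis and decoding, all tested, 0 were called without pairing in Rps27-FLAG (5.67% of all transcripts were) and 1 in Rps27l-FLAG (3.1% were). Rpl30, a protein of the large subunit that also binds SECIS elements, was higher in the IP of Rps27l-FLAG (0.37, SE 0.078, adjusted p = 0.047). Its 3 clones read 0.32, 0.45 and 0.33 there and 0.19, 0.32 and 0.22 in Rps27-FLAG. With the block 3 of 11 passed in each line (27.3%), beside 41.2% and 31.0% of all transcripts. In Rps27-FLAG these were Rpl30 (0.24) and Scly, a selenocysteine lyase (0.24), which were higher, and Eefsec, the elongation factor for the selenocysteine tRNA, which was lower (-0.25, adjusted p = 1.2e-04, with the 3 clones at -0.23, -0.24 and -0.31). In Rps27l-FLAG Rpl30 was higher, and Secisbp2 (-0.24, adjusted p = 0.047) and its homolog Secisbp2l (-0.37, adjusted p = 0.0010) were lower. With the CDS length trend removed as well, Eefsec (-0.23, adjusted p = 9.0e-04) was the 1 of 11 called in Rps27-FLAG and Rpl30 (0.16, adjusted p = 2.2e-04) the 1 of 11 in Rps27l-FLAG. In the same fits 30.4% and 22.3% of all transcripts were called. Without pairing, the median over the 11 was -0.06 (Rps27-FLAG) and -0.05 (Rps27l-FLAG).

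The third list held 24 partners in thiol metabolism, the thioredoxins, peroxiredoxins, glutaredoxins and enzymes of glutathione, and cysteine homologs of selenoproteins, of which 23 were tested. Without pairing 1 of 23 was called in Rps27-FLAG, where 5.67% of all transcripts were. This was Gclc, the catalytic subunit of the first enzyme of glutathione synthesis, which was lower in the IP (-0.39, SE 0.067, adjusted p = 0.015). In Rps27l-FLAG 0 were called, where 3.1% of all transcripts were. There 4 of 23 were at an unadjusted p under 0.05, beside 1752 of the 10085 transcripts. With the block 10 of 23 were called in Rps27-FLAG (6 higher, 4 lower) and 7 in Rps27l-FLAG (4 higher, 3 lower), beside 41.2% and 31.0% of all transcripts. With the length trend removed as well, 7 of 23 were called in Rps27-FLAG (0 higher, 7 lower) and 4 in Rps27l-FLAG (1 higher, 3 lower). Of all transcripts, 30.4% and 22.3% were called in these fits. None of the 6 higher calls in Rps27-FLAG remained. With the block alone, the largest in size in Rps27-FLAG were Gclc (-0.39) and Gss, which completes glutathione synthesis (-0.38), both lower, and Mien1 (0.36) and Glrx5, a mitochondrial glutaredoxin (0.27), both higher. In Rps27l-FLAG they were Gclc (-0.30) and Gss (-0.23), lower, and Txn1, the thioredoxin that Txnrd1 reduces (0.30), and Prdx1, a peroxiredoxin (0.27), higher. Gclc has a CDS longer than the median and stayed called in both lines with the block and the length trend removed (-0.34 and -0.27), as did Gss (-0.39 and -0.24) and, in Rps27l-FLAG, Prdx1 (0.13). Mien1 (0.11) and Glrx5 (0.06) in Rps27-FLAG and Txn1 (0.08) in Rps27l-FLAG did not. The median of the 23 was 0.10 and 0.04 without pairing. The batch test in total RPFs called 0 of the 10 other selenoprotein mRNAs, 2 of the 11 genes of the second list (Rpl30 and Sars) and 3 of these 23 (Gsr, Gss and Prdx1), beside 12.3% of all transcripts. Between lines 0 of the 53 tested genes of the members and the 3 lists passed both the adjusted p and the limit of 0.25, beside 0.565% of all transcripts.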

How the data were processed

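The values are read counts per transcript as deposited by the authors, without normalization, for 15 libraries and 21727 transcripts. All 15 columns were used. Per the submitters' processing notes and the study's methods, reads were trimmed with cutadapt 2.4, deduplicated by molecular identifiers with UMI-tools 1.0.1, cleared of rRNA, tRNA and snRNA, and aligned to GRCm38 transcripts with Bowtie2 2.3.4.3. Unique alignments were kept and A sites counted along the CDS from codon 16 on, with the last 5 codons also left out, which removes the end where 4 of the UGA codons lie. Names, positions and sequences came from GENCODE M21 (21713 transcripts matched) on GRCm38, while the study used another GENCODE release. No stretch of footprint length in a member's CDS occurred in the CDS of another listed transcript.

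Tests used 10085 transcripts, those above 2 CPM in 14 or more libraries, after removal of 13 that mitochondria encode. The 6 IP and the 9 total libraries had TMM factors of their own. edgeR 4.0.16 in R 4.3.3 fitted quasi-likelihood models to the counts of all tested transcripts, with Benjamini-Hochberg adjustment and a threshold of 0.05. The fits were first run on simulated counts. Those held larger changes than the members showed between fractions or lines, and no clone effects. They therefore say nothing about how well steps of the members' size are called. IP and total RPFs were compared with the fraction as the only term, lines with the clone as a term, an absolute log2 limit of 0.25 and Tmod3 left out, and total RPFs with the line as the term. Log2 ratios per clone had 0.5 added to counts. Deviations from condition means correlated between the IP and total libraries of a clone, with r of 0.47 to 0.79 in all 6 clones. For the same replicate number in other lines the median was 0.44 (-0.16 to 0.71), so the 2 ranges overlap. A shared clone and a shared replicate number are therefore not separated by these values. For other numbers the median was -0.31, which centring each condition on its 3 libraries lowers by construction. Alternatives were other normalizations and filters, DESeq2 1.42.0, voom with limma 3.58.1, removal of a loess trend with CDS length (span 0.5), the replicate block, and leaving out each replicate. The block with each clone left out was added after seeing the data. The 10 genes and the 3 lists were chosen with earlier results of these data known. All members are named, and of each list the called genes largest in size (at most 4 per comparison). Replicates are separately selected clones of one cell line. Without the block, p-values rest on the spread between clones, and with it on what is left once each clone's own level is removed. Both fits share information on variance between transcripts, so an SE can be smaller than a gene's own clone ratios would give. A call with the block therefore does not show that the clones agreed.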

Additional observations from a re-analysis of the deposited data

How the results depend on the processing

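The number of selenoprotein mRNAs past the threshold stayed at 0 under every alternative for the 3 comparisons of total RPFs and for the comparison of IP/total between lines. It moved in the other tests. In Rps27-FLAG IP against total RPFs it went from 0 to 5 with the replicate block and to 5 with the block fitted over all 12 libraries, and to between 0 and 1 when each replicate was left out. With the replicate block and clone 1, 2 or 3 left out it was 3, 5 and 4, where 3381, 3311 and 3384 of the 10085 transcripts were called. In Rps27l-FLAG it went from 0 to 1 with DESeq2 and with DESeq2 size factors, where 467 and 327 of the 10085 transcripts were called. It went to 4 with the replicate block and over all 12 libraries, and to 1 with the replicate block and the CDS length trend removed. With the block it was 1, 2 and 3 without clone 1, 2 or 3, where 2511, 2394 and 2510 transcripts were called. For the sequencing batch it went from 1 to 0 with DESeq2 and without the cell line in the model, to 2 with no filter on low counts, and lay between 0 and 2 with single replicates left out. The median WT level per kb of the 10 mRNAs was 114 over counted codons and 96.5 over the whole CDS. Over all transcripts the count of 572 for Rps27-FLAG lay between 0 and 1817 with a replicate left out and was 166 with the length trend removed; the count of 313 for Rps27l-FLAG lay between 0 and 319 and was 6. The replicate block took them to 4154 and 3128, and those of total RPFs from 0 to 1, 144 and 137. The count of 57 between lines was 12 with DESeq2, 27 with the length trend removed, 0 with no replicate block and 150 with no limit on the fold change. The batch count of 1239 was 2233 with no filter, 239 without the cell line, 375 in the IP libraries and 270 to 2169 with a replicate left out. The cause of these shifts was not tested.

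The sign of some log2 values turned. With the length trend removed, Rps27-FLAG IP over total turned to -0.058 for Selenof, -0.080 for Selenos, -0.072 for Gpx4 and -0.0050 for Selenok, and to -0.056, -0.085, -0.071 and -0.014 with the replicate block as well. In Rps27l-FLAG it turned to -0.016 for Selenof, -0.015 for Selenot and -0.066 for Selenok, and to -0.0093, -0.015 and -0.069 with the block as well, while Txnrd1 turned to 0.014 with DESeq2, 0.014 with its size factors and 0.0036 with TMM over all 15 libraries. Between lines Txnrd2 turned to -0.018 with DESeq2 and -0.023 with no replicate block. In total RPFs the length trend turned Gpx4 to -0.0091 (Rps27-FLAG against WT) and Selenot to 0.012 (Rps27l-FLAG against Rps27-FLAG). With single replicates left out, the difference between lines ranged from -0.15 to 0.027 for Gpx1, -0.21 to 0.22 for Txnrd2 and -0.050 to 0.041 for Selenof. The ranges for Rps27-FLAG against WT were -0.082 to 0.22 for Gpx1, -0.14 to 0.061 for Selenot, -0.19 to 0.093 for Txnrd2 and -0.021 to 0.040 for Gpx4. For Rps27l-FLAG against WT they were -0.028 to 0.074 for Sephs2, -0.14 to 0.059 for Selenot, -0.0045 to 0.055 for Txnrd1 and -0.14 to 0.13 for Txnrd2. For Rps27l-FLAG against Rps27-FLAG they were -0.25 to 0.051 for Selenos, -0.054 to 0.045 for Selenot, -0.11 to 0.23 for Txnrd2 and -0.13 to 0.061 for Selenok. Txnrd2, with 31 to 122 counts per library, and Selenow, with 7 to 35, were limited by depth.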
